A study of Mus musculus with 22 samples.

Results

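The genes described here belong to the PPARA programme of fatty acid oxidation and ketogenesis. They were chosen by name, as a list of 39 genes, with earlier results of these data known. On the array 37 of them had a feature carrying their symbol, among 22206 features in all. No feature carried the symbols Acsl1 and Etfb, which are not analysed here. Each of the 37 genes was represented by 1 feature, so no choice between features of a gene arose.

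The samples were livers of male mice with a global knockout of adiponectin, the fat-cell hormone encoded by Adipoq (B6;129-Adipoqtm1Chan/J on a C57BL/6J background), 3 to 8 months old. All mice carried the knockout, had standard chow and water freely, and lived under 12 h of light and 12 h of darkness. Livers were collected at zeitgeber times (ZT, hours after lights on) 2, 6, 10, 14, 18 and 22, with 4, 3, 4, 4, 3 and 4 arrays. Each liver was hybridised to a Clariom S array, and letters tell the arrays of a time apart (ZT2a). Each mouse gave 1 time point, the age of a single mouse is not labelled, and livers of wild-type mice are not analysed here. No value below therefore measures an effect of adiponectin.

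PPARA is a nuclear receptor that binds fatty acids and, paired with RXR, switches on genes for taking up, activating and burning fat in hepatocytes. Fatty acids are activated to acyl-CoA, carried into mitochondria by the carnitine shuttle, and shortened by beta-oxidation, with acetyl-CoA passing to ketone bodies during fasting. Peroxisomes shorten very long chains, and microsomal CYP4A enzymes hydroxylate the far end of the chain. Laboratory mice eat mostly in the dark phase, and several of these genes are known to rise in fasting.

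Values are log expression values, read as base 2, and a difference of 1 is then a doubling of signal. The 7 hepatocyte markers, among them Alb, Ttr and Apoa1, were bright on every array, with a summed level between 21.64 and 21.87. Of the adipocyte markers Adipoq (3.30 to 4.69), Plin1 (2.89 to 4.27), Lep (2.54 to 4.38) and Retn (3.15 to 4.69) lay about the lower quartile of the arrays, which was 3.67 to 3.91 and cannot be told from background. Cidec, also made by liver, ranged from 4.81 to 9.90. The summed level of 6 sinusoidal endothelial markers ran from 12.69 to 13.32 at ZT10 and from 13.35 to 13.62 at ZT22, and that of 6 Kupffer cell markers from 10.12 to 11.17 and from 9.71 to 10.40. Their part in the results was not tested. In whole liver, fewer cells of a type and less RNA per cell cannot be told apart. The secreted peptide gene Tff3 stood at 10.35 to 13.63 in 5 arrays (ZT6b, ZT6c, ZT14b, ZT14d and ZT22a) and at 2.31 to 4.73 in the other 17. Fgf21, Acsl5, Cpt1a and Ehhadh exceeded, in each of these 5, all remaining arrays of the time, and Eci2 fell short of them, which is 10.8% and 2.70% of the measured members against 4.76% and 3.64% of all features. Values without these arrays are given for the members set apart in them and where a call changed. Without them ZT6 keeps 1 array, ZT14 keeps 2 and ZT22 keeps 3.

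The first question was which genes of the programme differed over the day. Cpt1a and Ppara were highest at ZT10, late in the rest phase, and 4 other genes of the programme (Cyp4a14, Pdk4, Crat and Acsl5) were lowest at that time and highest at ZT22. The thioesterases Acot3 and Acot4 were highest at ZT18. None of the 10 enzymes of the mitochondrial beta-oxidation spiral was called for a 24 h rhythm, with fitted spans up to 1.38-fold. Acadl among them was called under some other settings. In simulated data the 24 h test recovered 4% of rhythms of amplitude 0.25 log2 units, planted in features drawn from the whole array. The recovery in these enzymes was not measured, and a missing call does not exclude low rhythms. A 24 h rhythm, tested by limma's moderated F statistic for a cosine and a sine of 24 h with Benjamini-Hochberg adjustment over all features, was called (adjusted p under 0.05) in 10 of 37 members, which is 27.0%. Of all features 7.62% were called, and of features above the median level, where 36 of the 37 members lie, 13.6%. The members were chosen with earlier results known, and an excess over these shares was not tested. The median fitted amplitude was 0.23 log2 units in the members and 0.16 over all features. At an unadjusted p under 0.05 there were 18 members, against 4688 of all 22206 features and 3581 of the 11103 above the median level.

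**Figure D1:**
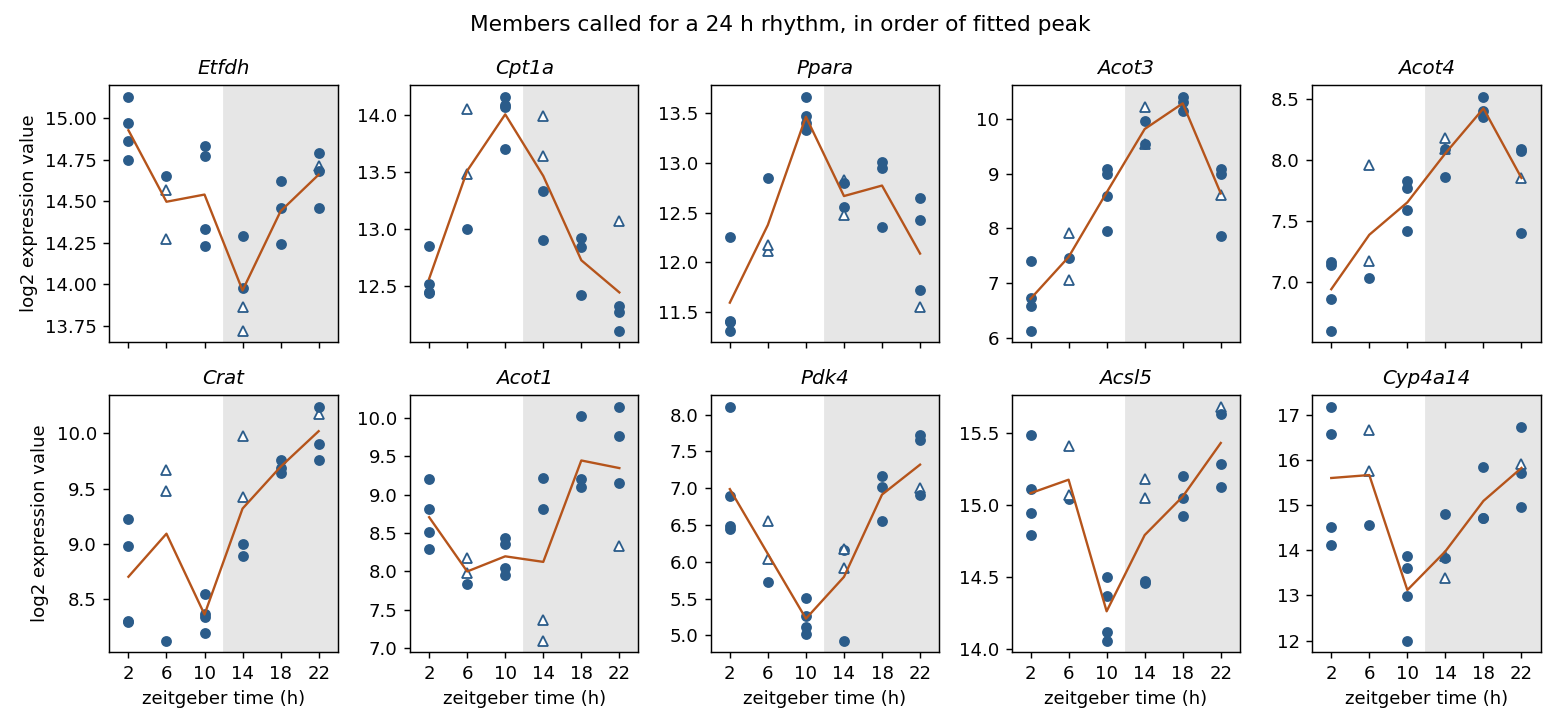
Values of the 10 members called for a 24 h rhythm. The x axis is zeitgeber time in hours and the y axis the log2 expression value, each point is 1 array, open triangles are the 5 arrays with high Tff3, the line joins the time means and grey marks darkness. Cpt1a and Ppara have their highest means at ZT10, where Crat, Pdk4, Acsl5 and Cyp4a14 have their lowest.

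The 10 fitted peaks spread over the day. They followed in the order Etfdh (ZT2.05), Cpt1a (ZT10.2), Ppara (ZT12.3), Acot3 (ZT15.9), Acot4 (ZT16.4), Crat (ZT19.7), Acot1 (ZT20.8), Pdk4 (ZT22.4), Acsl5 (ZT22.8) and Cyp4a14 (ZT23.9). Standard errors of the peaks ran from 0.299 h for Acot3 to 0.883 h for Etfdh. The neighbours Acot3 and Acot4, Crat and Acot1, Pdk4 and Acsl5, and Acsl5 and Cyp4a14 each lay closer together than the sum of their standard errors. Of the called members 4 peaked between ZT20 and ZT24, the window that also held the most called features of the array (366 of 1691). Between ZT4 and ZT8 there were 0 members and 245 features.

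**Figure D2:**
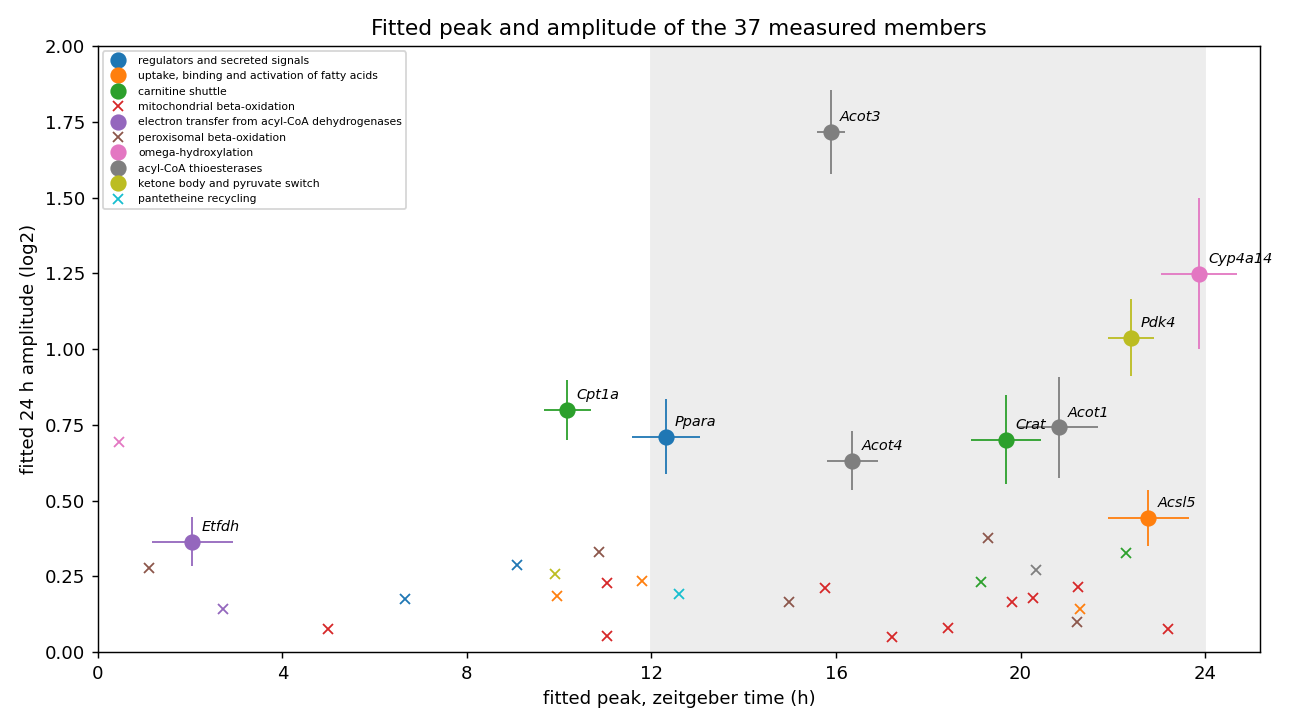
Fitted peak in zeitgeber hours (x axis) and fitted 24 h amplitude in log2 units (y axis) of the 37 measured members, coloured by role, with grey marking darkness. Filled circles with SE bars were called for a 24 h rhythm and crosses were not; Acot3 has the largest amplitude, 1.72.

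Among the regulators, Ppara, the receptor itself, was called. At ZT2 the arrays of Ppara measured 11.31, 11.41, 12.25 and 11.40, at ZT6 12.85, 12.11 and 12.17, and at ZT10 13.40, 13.47, 13.33 and 13.67. In the dark they measured 12.56, 12.83, 12.80 and 12.48 at ZT14, 13.01, 12.95 and 12.36 at ZT18, and 11.55, 11.72, 12.65 and 12.43 at ZT22. All 4 arrays of ZT10 thus lay above every array of the other times, and 3 of the 4 arrays of ZT2 lay below every array of ZT6 to ZT18. The mean went from 11.59 ± 0.44 (SD, n = 4) at ZT2 to 13.47 ± 0.15 (SD, n = 4) at ZT10. The fitted amplitude was 0.71 ± 0.12 (SE, n = 22), a 2.68-fold span from trough to peak (adjusted p = 0.00124). The fitted peak was ZT12.3, later than the highest mean, and the time means spanned 3.67-fold. A 12 h component of Ppara was not called by limma (unadjusted p = 0.00476, adjusted p = 0.419).

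The other regulators were not called. Creb3l3, a transcription factor of the hepatocyte that acts with PPARA, ranged from 12.90 to 13.98 (adjusted p = 0.413). All its arrays at ZT10 (13.57 to 13.98) lay above those at ZT22 (13.07 to 13.43), but the difference of 0.41 ± 0.19 did not pass (adjusted p = 0.299). Fgf21, the hormone that liver releases in fasting, lay between 3.33 and 5.20, near the lower quartile of the arrays. Its highest arrays were ZT6b (5.20) and ZT6c (4.90), followed by ZT14d (4.68) and ZT14b (4.50), all of them among the arrays with high Tff3. The other array of ZT6 measured 3.97. Neither the rhythm (adjusted p = 0.390) nor the F test of any difference among times (adjusted p = 0.0594) passed for Fgf21. Its amplitude was 0.29, and 0.09 without the arrays with high Tff3 (adjusted p = 0.804).

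Uptake and activation genes differed among themselves. Acsl5, which joins long-chain fatty acids to coenzyme A, measured 14.94, 14.79, 15.48 and 15.11 at ZT2, 15.04, 15.41 and 15.07 at ZT6, and 14.37, 14.12, 14.06 and 14.50 at ZT10. In the dark it measured 14.46, 15.18, 14.47 and 15.05 at ZT14, 15.05, 15.20 and 14.92 at ZT18, and 15.68, 15.28, 15.12 and 15.63 at ZT22. ZT10 was low, overlapping in level only ZT14, where the arrays ZT14b and ZT14d with high Tff3 stood above the other arrays of that time. The fitted amplitude of Acsl5 was 0.44 ± 0.09 (SE), a 1.85-fold span (adjusted p = 0.00822), and 0.52 without the arrays with high Tff3 (adjusted p = 0.000992). The carnitine transporter Slc22a5 (6.89 to 8.30, adjusted p = 0.254), the cytosolic fatty acid carrier Fabp1 (16.71 to 17.66, adjusted p = 0.281) and the surface fatty acid receptor Cd36 (7.72 to 10.36, adjusted p = 0.914) were not called. Cd36 is also made by endothelium, macrophages and fat cells. Its mean was 10.03 ± 0.51 (SD, n = 3) at ZT6 and 8.40 ± 0.70 (SD, n = 4) at ZT10, and its arrays of ZT10 reached from 7.83 to 9.31.

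Of the 4 genes of the carnitine shuttle, Cpt1a and Crat were called, with Cpt1a highest and Crat lowest at ZT10. The shares called were 7.62% of all features and 13.6% of those above the median level. CPT1A makes acyl-carnitine at the outer mitochondrial membrane and sets the rate of entry, SLC25A20 carries it across the inner membrane, CPT2 restores acyl-CoA inside, and CRAT moves acetyl groups onto carnitine. Cpt1a measured 12.45, 12.52, 12.85 and 12.44 at ZT2, 13.00, 14.05 and 13.48 at ZT6, and 13.70, 14.16, 14.09 and 14.07 at ZT10. It then measured 12.90, 13.99, 13.33 and 13.64 at ZT14, 12.84, 12.92 and 12.42 at ZT18, and 13.07, 12.11, 12.27 and 12.33 at ZT22. The arrays of ZT10 lay above all of ZT2, ZT18 and ZT22, and the highest values of ZT6, ZT14 and ZT22 were those of ZT6b, ZT14b and ZT22a, which had high Tff3. The amplitude was 0.80 ± 0.10 (SE, adjusted p = 1.30e-05), and without the 5 arrays with high Tff3 it was 0.81 (adjusted p = 1.10e-05), so the rhythm was as large without them.

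Crat measured 8.31, 8.98, 9.23 and 8.30 at ZT2, 8.13, 9.48 and 9.67 at ZT6, and 8.20, 8.37, 8.34 and 8.55 at ZT10. In the dark Crat measured 9.00, 9.97, 8.89 and 9.42 at ZT14, 9.64, 9.69 and 9.76 at ZT18, and 10.17, 9.90, 9.76 and 10.24 at ZT22. All dark arrays lay above all arrays of ZT10, while the ZT6 arrays split, with ZT6b and ZT6c more than 1 unit above ZT6a. The amplitude was 0.70 ± 0.15 (SE), a 2.65-fold span (adjusted p = 0.00726), and 0.91 without the arrays with high Tff3 (adjusted p = 2.17e-05). Cpt2 (10.41 to 11.86, adjusted p = 0.0625) and Slc25a20 (11.25 to 12.45, adjusted p = 0.271) were not called. Leaving out ZT2d or ZT22b alone brought Cpt2 past the threshold (adjusted p = 0.0234 and 0.0139).

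The enzymes of the beta-oxidation spiral of mitochondria had low fitted amplitudes, from 0.05 to 0.23. None of the 10 measured members (Acadvl, Acadl, Acadm and Acads, the dehydrogenases by falling chain length; Hadha, Hadhb and Hadh of the later steps; the thiolase Acaa2; and Eci1 and Decr1, which prepare unsaturated chains) was called for a 24 h rhythm, with limma's adjusted p from 0.0729 for Acadl to 0.959 for Decr1. At an unadjusted p under 0.05 there were 3581 of the 11103 features above the median level, and 2 of these 10 enzymes. The 24 h call of Acadl appeared with quantile normalization (adjusted p = 0.0374) and when ZT10c or ZT10d was left out (adjusted p up to 0.0378). Fitted spans of the spiral ran from 1.07-fold for Hadha to 1.38-fold for Acadl. Between the highest and the lowest time mean the difference was wider, from 1.14-fold for Acaa2 to 1.76-fold for Eci1. A missing call does not show that an enzyme was level. In simulated data 4% of rhythms of amplitude 0.25 were called, but these were planted in features drawn from the whole array. The median spread within times was 0.32 (SD) over all features and 0.21 over the spiral. The share that the test would recover in these enzymes was therefore not measured. Every fitted amplitude of the spiral was lower than 0.25. Of features above the median level 13.6% were called, so 0 of 10 does not set the spiral apart. Acaa2 measured 17.11, 17.26, 17.49 and 17.30 at ZT2, 17.40, 17.29 and 17.08 at ZT6, and 17.14, 17.44, 17.37 and 17.40 at ZT10. In the dark Acaa2 measured 17.37, 17.24, 17.36 and 17.36 at ZT14, 17.48, 17.50 and 17.35 at ZT18, and 17.44, 17.34, 17.46 and 17.40 at ZT22. Its values overlap at all 6 times, and its spread within times was 0.12 (SD). Hadha and Hadhb, the subunits of the trifunctional protein, start head to head, with RefSeq promoter windows that overlap on opposite strands (chr5:30154931-30155230 and chr5:30155003-30155302, GRCm38.p6). Hadha ranged from 14.85 to 15.62 and Hadhb from 13.04 to 13.76. Eci1 was called in the F test of any difference among times (adjusted p = 0.0448), with a mean of 9.55 ± 0.16 (SD, n = 3) at ZT6 and 10.36 ± 0.12 (SD, n = 3) at ZT18. That call was lost in 14 of 22 omissions of a single array.

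Electrons from the acyl-CoA dehydrogenases pass through ETF to ETFDH and on to ubiquinone. Etfdh measured 14.86, 14.97, 15.13 and 14.75 at ZT2, 14.65, 14.27 and 14.57 at ZT6, and 14.23, 14.77, 14.33 and 14.83 at ZT10. In the dark Etfdh measured 13.98, 13.86, 14.29 and 13.72 at ZT14, 14.62, 14.46 and 14.24 at ZT18, and 14.71, 14.46, 14.79 and 14.68 at ZT22. The ZT14 arrays were low and did not overlap those of ZT2 or ZT22. The amplitude was 0.36 ± 0.08 (SE, adjusted p = 0.0120), and the call was lost without the 5 arrays with high Tff3 (amplitude 0.32, adjusted p = 0.0620). Etfa, a subunit of ETF, ranged from 15.07 to 16.04 (adjusted p = 0.432).

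**Figure D3:**
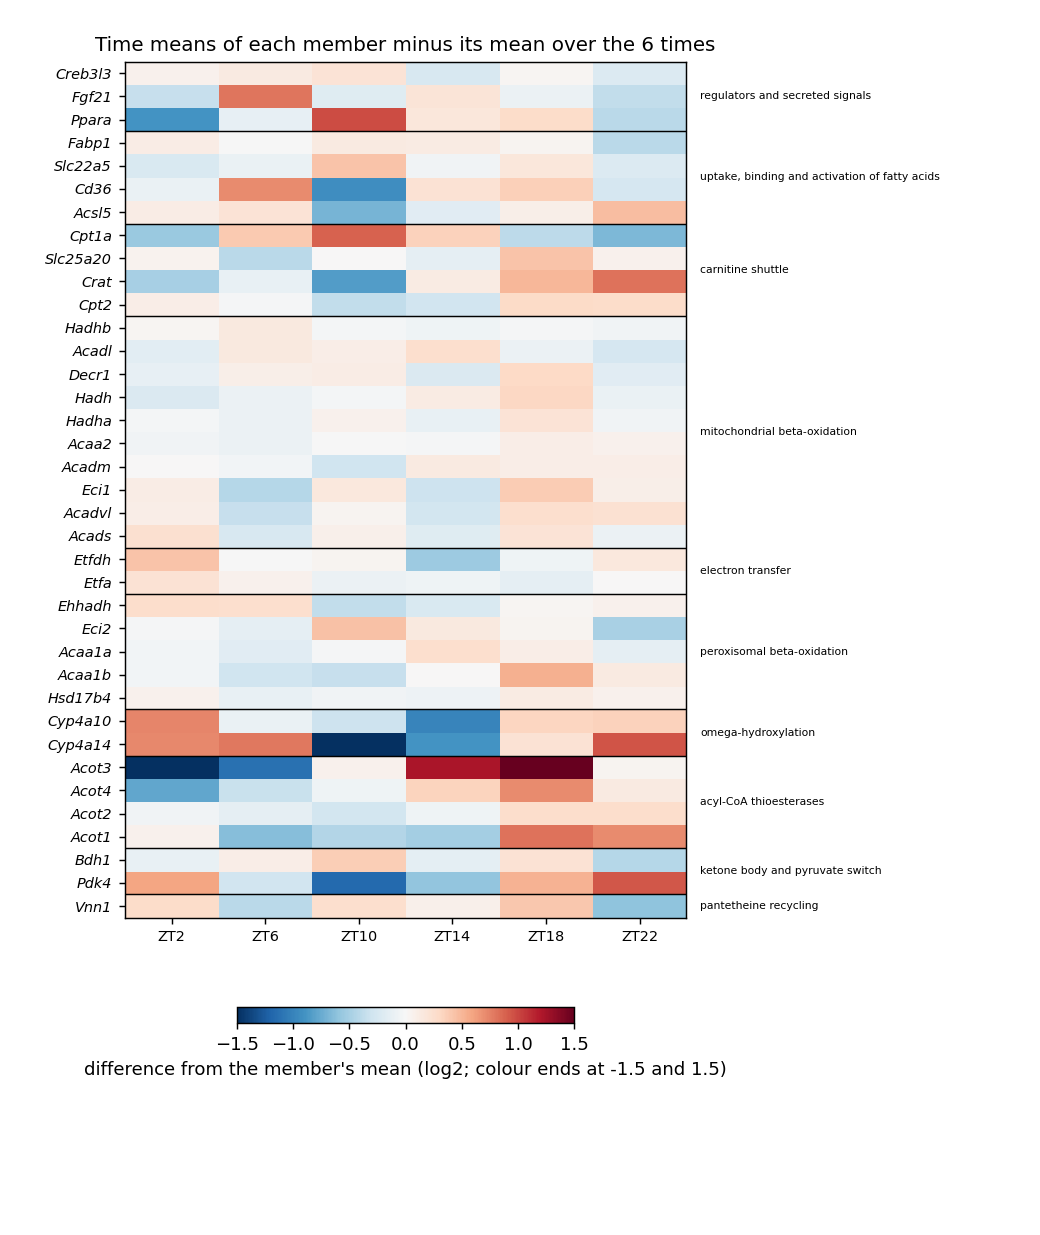
Mean of each of the 37 measured members at the 6 times minus the member's mean over the times, on the log2 scale with colours ending at -1.5 and 1.5. Rows are genes grouped by role. The rows of mitochondrial beta-oxidation are pale, and at ZT10 the rows of Ppara and Cpt1a are red where those of Cyp4a14, Pdk4, Crat, Acsl5 and Cd36 are blue.

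Of the 5 measured members of peroxisomal beta-oxidation, 0 passed limma's 24 h test, with 3 at an unadjusted p under 0.05. Outside the members, the peroxisomal oxidase Acox2 passed this test (adjusted p = 0.00539) and Acox3 did not (adjusted p = 0.392). Of features above the median level 13.6% passed the test, and 3581 of 11103 had an unadjusted p under 0.05. Ehhadh, a bifunctional enzyme and known PPARA target, ranged from 13.58 to 14.73 (adjusted p = 0.103). Its amplitude was 0.28, and 0.25 without the arrays with high Tff3 (adjusted p = 0.170). The thiolases Acaa1a (12.77 to 13.82, adjusted p = 0.440) and Acaa1b (11.97 to 13.62, adjusted p = 0.0814) and the isomerase Eci2 (13.81 to 15.33, adjusted p = 0.0703) did not pass either. Hsd17b4, the other bifunctional enzyme, measured 14.98, 14.94, 15.37 and 14.87 at ZT2, 15.28, 14.64 and 14.65 at ZT6, and 14.81, 15.14, 14.61 and 15.10 at ZT10. In the dark Hsd17b4 measured 15.21, 14.66, 14.98 and 14.75 at ZT14, 15.17, 15.05 and 15.06 at ZT18, and 15.01, 14.76, 15.21 and 15.16 at ZT22. All 6 times overlapped (adjusted p = 0.701). For Eci2 the call appeared when ZT6b, ZT14b, ZT14d or ZT22c was left out, and also without the 5 arrays with high Tff3 (adjusted p = 0.0210). For Acaa1b it appeared without ZT22b (adjusted p = 0.00721).

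The omega-hydroxylases varied widely between mice. Cyp4a14 measured 14.51, 14.12, 16.58 and 17.18 at ZT2, 14.56, 15.76 and 16.67 at ZT6, and 12.98, 13.88, 13.61 and 12.00 at ZT10. In the dark Cyp4a14 measured 14.81, 13.87, 13.83 and 13.39 at ZT14, 14.71, 15.85 and 14.71 at ZT18, and 15.90, 14.96, 15.70 and 16.72 at ZT22. The ZT10 arrays lay below every array of ZT2, ZT6, ZT18 and ZT22, but ZT2 itself fell into a low and a high pair more than 2 units apart. The fitted span was 5.65-fold (amplitude 1.25 ± 0.25, SE, adjusted p = 0.00474). Its neighbour on the chromosome, Cyp4a10, ranged from 12.01 to 16.17 and was not called (adjusted p = 0.0808). Leaving out ZT2b or ZT22a alone brought Cyp4a10 past the threshold. The spread within times was 0.96 (SD) for Cyp4a14 and 0.83 for Cyp4a10, against a median of 0.27 over the members and 0.32 over all features. The arrays ZT2c and ZT2d were high in both genes, and ZT10d was low in both. CYP4A genes resemble each other in sequence, and how far their probes share signal was not tested.

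The acyl-CoA thioesterases split acyl-CoA into free fatty acid and coenzyme A. Of the 4 measured, 3 were called for a 24 h rhythm, against 7.62% of all features and 13.6% of those above the median level. In the mouse, Acot1 encodes a cytosolic, Acot2 a mitochondrial, and Acot3 and Acot4 peroxisomal enzymes. The genes lie side by side on chromosome 12 in the order Acot2, Acot1, Acot4, Acot3. Acot3 had the largest amplitude of the programme, and it and its neighbour Acot4 had fitted peaks at ZT15.9 and ZT16.4, against ZT20.8 for Acot1. The promoters of both, from 250 bases before to 50 bases after the start as RefSeq gives them (GRCm38.p6), are shown because the genes moved together. The windows are chr12:84051894-84052193 for Acot3 and chr12:84038129-84038428 for Acot4, both on the plus strand. RefSeq gives another, overlapping window for Acot3 (chr12:84051901-84052200), which is not shown. Capitals mark matches to a direct repeat of AGGTCA with 1 base between the copies (DR1, AGGTCANAGGTCA, the class of site that PPARA and RXR bind, with up to 2 mismatches, either strand) or to the E-box CACGTG, the class of site that CLOCK and BMAL1 bind.
Acot3: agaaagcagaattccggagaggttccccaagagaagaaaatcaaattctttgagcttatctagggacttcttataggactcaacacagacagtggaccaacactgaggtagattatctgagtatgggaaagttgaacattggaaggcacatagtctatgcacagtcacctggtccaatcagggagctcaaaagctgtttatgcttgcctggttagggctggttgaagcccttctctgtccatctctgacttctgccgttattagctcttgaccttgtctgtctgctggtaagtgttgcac
Acot4: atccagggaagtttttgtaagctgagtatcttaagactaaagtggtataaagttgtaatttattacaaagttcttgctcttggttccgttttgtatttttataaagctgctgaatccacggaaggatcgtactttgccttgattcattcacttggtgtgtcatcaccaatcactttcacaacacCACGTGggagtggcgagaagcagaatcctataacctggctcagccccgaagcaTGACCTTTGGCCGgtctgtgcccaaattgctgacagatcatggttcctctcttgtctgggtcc
Acot4 held a DR1 match with 2 mismatches at position -13 from the start and an E-box at position -66. Acot3 held neither, and no match says only that these letters are absent from the window.

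Acot3 measured 6.73, 6.58, 6.13 and 7.41 at ZT2, 7.46, 7.05 and 7.92 at ZT6, and 9.08, 8.99, 8.60 and 7.96 at ZT10. In the dark Acot3 measured 9.97, 9.54, 9.54 and 10.22 at ZT14, 10.31, 10.41 and 10.14 at ZT18, and 8.61, 7.86, 9.00 and 9.09 at ZT22. All arrays of ZT14 and ZT18 lay above all arrays of the other 4 times. The mean rose from 6.71 ± 0.53 (SD, n = 4) at ZT2 to 10.29 ± 0.14 (SD, n = 3) at ZT18, and the fitted span was 10.8-fold (amplitude 1.72 ± 0.14, SE, adjusted p = 7.80e-09).

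Acot4 measured 6.60, 7.14, 7.16 and 6.86 at ZT2, 7.03, 7.17 and 7.96 at ZT6, and 7.77, 7.83, 7.42 and 7.59 at ZT10. It went on with 7.86, 8.09, 8.09 and 8.18 at ZT14, 8.35, 8.52 and 8.40 at ZT18, and 7.85, 7.40, 8.07 and 8.09 at ZT22. The ZT18 arrays lay above all others, and those of ZT2 below all of ZT10 to ZT22. The span was 2.40-fold (amplitude 0.63 ± 0.10, SE, adjusted p = 0.000250). Acot1 measured 8.52, 8.29, 8.81 and 9.21 at ZT2, 7.84, 7.98 and 8.18 at ZT6, and 8.04, 8.44, 7.95 and 8.36 at ZT10. Acot1 then measured 9.22, 7.37, 8.81 and 7.10 at ZT14, 9.21, 10.03 and 9.10 at ZT18, and 8.33, 9.15, 9.76 and 10.15 at ZT22. The lowest arrays of ZT14 and of ZT22 were ZT14b, ZT14d and ZT22a, which had high Tff3. Its amplitude was 0.74 ± 0.17 (SE, adjusted p = 0.0146), and 0.85 without the arrays with high Tff3 (adjusted p = 0.000280). The F test of any difference among times did not pass for Acot1 (adjusted p = 0.0574). Acot2 ranged from 7.83 to 9.51 and was not called (adjusted p = 0.243). The family members resemble each other in sequence, and shared probe signal was not tested.

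Pdk4 blocks pyruvate dehydrogenase and so spares glucose when fat is burnt. Pdk4 measured 6.49, 6.90, 8.11 and 6.45 at ZT2, 5.72, 6.56 and 6.04 at ZT6, and 5.11, 5.27, 5.02 and 5.51 at ZT10. In the dark Pdk4 measured 4.93, 5.91, 6.16 and 6.18 at ZT14, 7.02, 6.56 and 7.16 at ZT18, and 7.00, 7.65, 6.91 and 7.72 at ZT22. The ZT10 arrays lay below all arrays of the other times but ZT14a. The span was 4.22-fold (amplitude 1.04 ± 0.13, SE, adjusted p = 9.86e-06). Bdh1, which interconverts the ketone bodies acetoacetate and 3-hydroxybutyrate, ranged from 12.05 to 13.56 and was not called for a rhythm (adjusted p = 0.163). Vnn1, a pantetheinase of the coenzyme A cycle and a known PPARA target, measured 9.18, 8.57, 9.84 and 9.45 at ZT2, 9.16, 8.57 and 8.02 at ZT6, and 8.58, 9.69, 9.21 and 9.45 at ZT10. In the dark Vnn1 measured 9.95, 8.32, 10.19 and 7.80 at ZT14, 10.11, 9.40 and 8.65 at ZT18, and 7.94, 6.69, 9.22 and 9.65 at ZT22. All times overlapped, the spread within times was 0.90 (SD), and no rhythm was called (adjusted p = 0.861).

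The next comparison set the late rest phase against the late active phase, ZT10 against ZT22, with 4 arrays each and the spread taken from all 22. Cpt1a was 1.56 ± 0.24 (SE) higher at ZT10, a 2.95-fold difference, and Ppara 1.38 ± 0.25 higher, or 2.60-fold. Eci2 (0.93 ± 0.22) and Bdh1 (0.80 ± 0.18) were also higher at ZT10. Higher at ZT22 were Cyp4a14, with a ZT10 minus ZT22 difference of -2.70 ± 0.57, Pdk4 (-2.09 ± 0.32), Crat (-1.65 ± 0.28) and Acsl5 (-1.17 ± 0.20), which is 6.51-fold, 4.26-fold, 3.14-fold and 2.24-fold. In all, 4 of 37 members were called higher at ZT10, against 1.15% of all features, and 4 higher at ZT22, against 2.15%. Among features above the median level these shares were 1.96% and 4.08%. Adjusted p from limma ran from 0.000154 for Pdk4 to 0.0134 for Eci2. The arrays of the 2 times did not overlap in 6 members with ZT10 higher (the 4 called, Creb3l3 and Fabp1), against 4.21% of all features, and in 4 members with ZT22 higher, against 5.38%. The calls of Eci2 and Bdh1 were less firm. That of Eci2 was lost when ZT10b, ZT22a or ZT22b was left out (adjusted p up to 0.0635), and that of Bdh1 without ZT22b (adjusted p = 0.0532). Without the arrays with high Tff3 all 8 calls remained, and Fabp1 at ZT10 and Acot1 at ZT22 joined them.

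**Figure D4:**
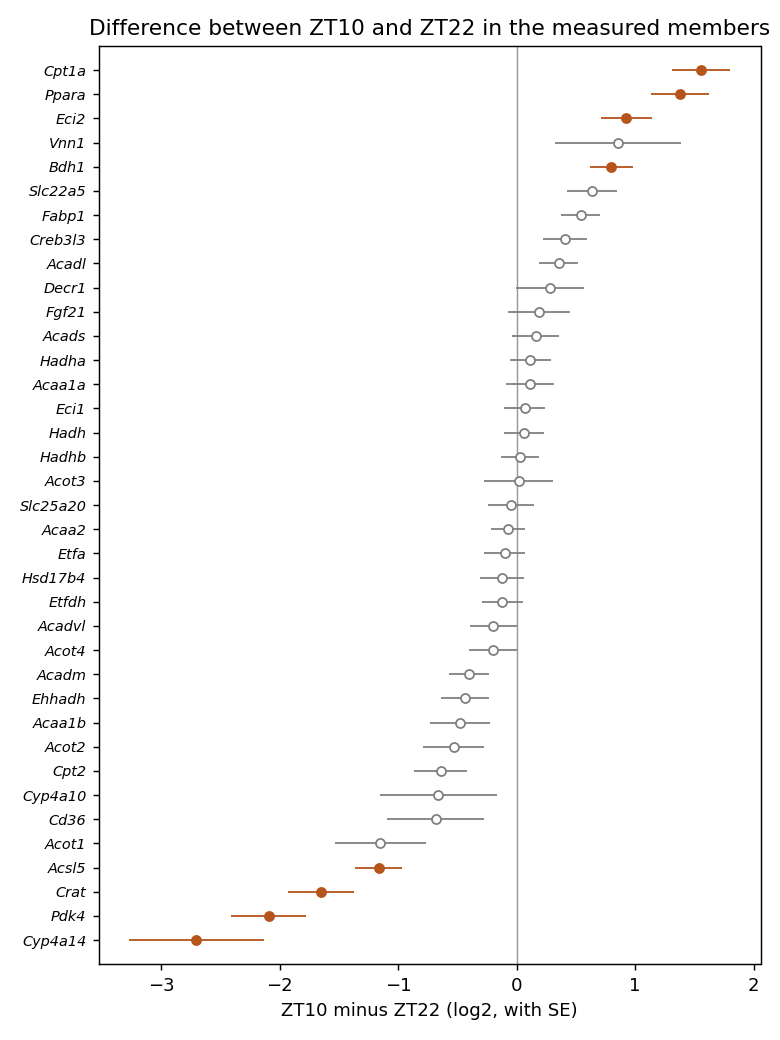
Difference ZT10 minus ZT22 in log2 units (x axis) with its standard error for each measured member (y axis). Filled points passed an adjusted p of 0.05: Cpt1a, Ppara, Eci2 and Bdh1 on the side of ZT10, and Acsl5, Crat, Pdk4 and Cyp4a14 on the side of ZT22.

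The promoters of Cpt1a and Pdk4, the genes of lowest adjusted p on either side, are shown for comparison (RefSeq, GRCm38.p6; chr19:3323051-3323350 on the plus strand and chr6:5496229-5496528 on the minus strand, each written 5′ to 3′ along its gene), with that of Fabp1, whose window held the closest DR1 match of the programme (chr6:71199629-71199928, plus strand). Capitals again mark a DR1 match with up to 2 mismatches.
Cpt1a: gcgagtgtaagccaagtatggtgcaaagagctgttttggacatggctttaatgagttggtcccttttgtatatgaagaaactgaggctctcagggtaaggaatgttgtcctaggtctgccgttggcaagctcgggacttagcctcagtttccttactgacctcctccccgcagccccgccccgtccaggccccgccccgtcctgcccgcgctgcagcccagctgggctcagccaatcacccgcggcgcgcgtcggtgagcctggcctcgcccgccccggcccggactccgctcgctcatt
Pdk4: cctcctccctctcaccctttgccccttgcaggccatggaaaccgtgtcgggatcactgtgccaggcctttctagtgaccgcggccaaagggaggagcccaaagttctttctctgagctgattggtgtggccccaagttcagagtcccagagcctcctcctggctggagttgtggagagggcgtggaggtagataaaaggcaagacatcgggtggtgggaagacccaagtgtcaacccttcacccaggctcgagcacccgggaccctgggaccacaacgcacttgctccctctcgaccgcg
Fabp1: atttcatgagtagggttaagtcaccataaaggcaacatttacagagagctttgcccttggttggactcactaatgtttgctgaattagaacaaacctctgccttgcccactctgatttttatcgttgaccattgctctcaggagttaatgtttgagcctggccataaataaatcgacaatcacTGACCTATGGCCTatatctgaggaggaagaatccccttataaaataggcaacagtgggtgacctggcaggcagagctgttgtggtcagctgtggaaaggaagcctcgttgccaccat
The match in Fabp1 was at position -67 from the start and had 1 mismatch. The windows of Cpt1a and Pdk4 held no DR1 match and no E-box. RefSeq windows were found for 32 of the 39 genes (36 windows), and 6 windows held a DR1 match: those of Acot4, Cd36, Creb3l3, Etfa, Fabp1 and Slc25a20. Among all 32851 windows 3.86% held it. An E-box lay in the windows of Acot4 and Fgf21, and in 7.15% of all windows. The D-box TTACGTAA, searched likewise, lay in 0 of the 36 windows and in 0.119% of all. These are matches of letters in short windows and show no binding.

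Between light and dark, 3 of 37 members were called higher in the dark and 0 higher in the light, against 3.25% and 2.02% of all features. Among features above the median level these shares were 6.05% and 3.20%, so the members' 3 of 37 stands near the background. Acot3 had a light minus dark difference of -1.97 ± 0.18 (SE, adjusted p = 1.76e-07), Crat of -0.96 ± 0.17 (adjusted p = 0.00121) and Acot4 of -0.78 ± 0.12 (adjusted p = 0.000312). Cpt1a missed the threshold with 0.48 ± 0.15 (adjusted p = 0.0606). With quantile normalization Cpt1a and Etfdh were called higher in the light (adjusted p = 0.0276 and 0.0336), which makes 2 members higher in the light and 3 in the dark. Without the 5 arrays with high Tff3, Acot1 and Acot2 joined the members higher in the dark (adjusted p = 0.00268 and 0.0489). Leaving out ZT2c added Acaa1b and Pdk4, and leaving out ZT22a added Cpt1a and Acot1, for 5 members in each case. Ppara did not differ detectably between the phases (-0.03 ± 0.15, adjusted p = 0.944). Its fitted peak (ZT12.3) lay at the change from light to dark, and its highest mean at ZT10.

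The F test of any difference among the 6 times called 10 of 37 members, against 6.14% of all features and 11.2% of those above the median level. Of these, 9 were also called for a 24 h rhythm, and the other was Eci1. Without the arrays with high Tff3 it called 8, losing Eci1, Etfdh and Cyp4a14 and gaining Acot1. Leaving out ZT14b or ZT14d alone also lost Etfdh. A 12 h component beside the 24 h term was called by limma in 0 of 37 members and in 0.018% of all features. Its unadjusted p lay under 0.05 in 5 members, in 1678 of all 22206 features and in 1072 of the 11103 above the median level. By time, 15 members had their highest mean at ZT18, among them 6 of the mitochondrial spiral and all 4 thioesterases. None of those 6 was called for a 24 h rhythm, and the mean of ZT18 rests on 3 arrays. At ZT10, 10 members had their lowest mean and 7 their highest. These counts by time were not tested or set against all features.

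Among mice of the same time, the arrays differed in how many members they held at the top or bottom. ZT2c held the highest value of its time in 21 of 37 members (56.8%, against 25.4% of all features), including Ppara (12.25 against 11.31 to 11.41) and Pdk4 (8.11 against 6.45 to 6.90). ZT10b held the highest value in 21 members (against 24.1% of all features). ZT22b held the lowest value in 22 members (59.5%, against 28.9% of all features and 38.8% of those above the median level), including Bdh1 (12.05) and Vnn1 (6.69). ZT18c, of 3 arrays, did so in 24 members (64.9%, against 34.2% of all features). These shares were not tested. The median deviation of the members from the mean of their time ran from -0.24 in ZT22b to 0.22 in ZT2c. The arrays with high Tff3 lay between -0.11 and 0.03 by this measure.

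**Figure D5:**
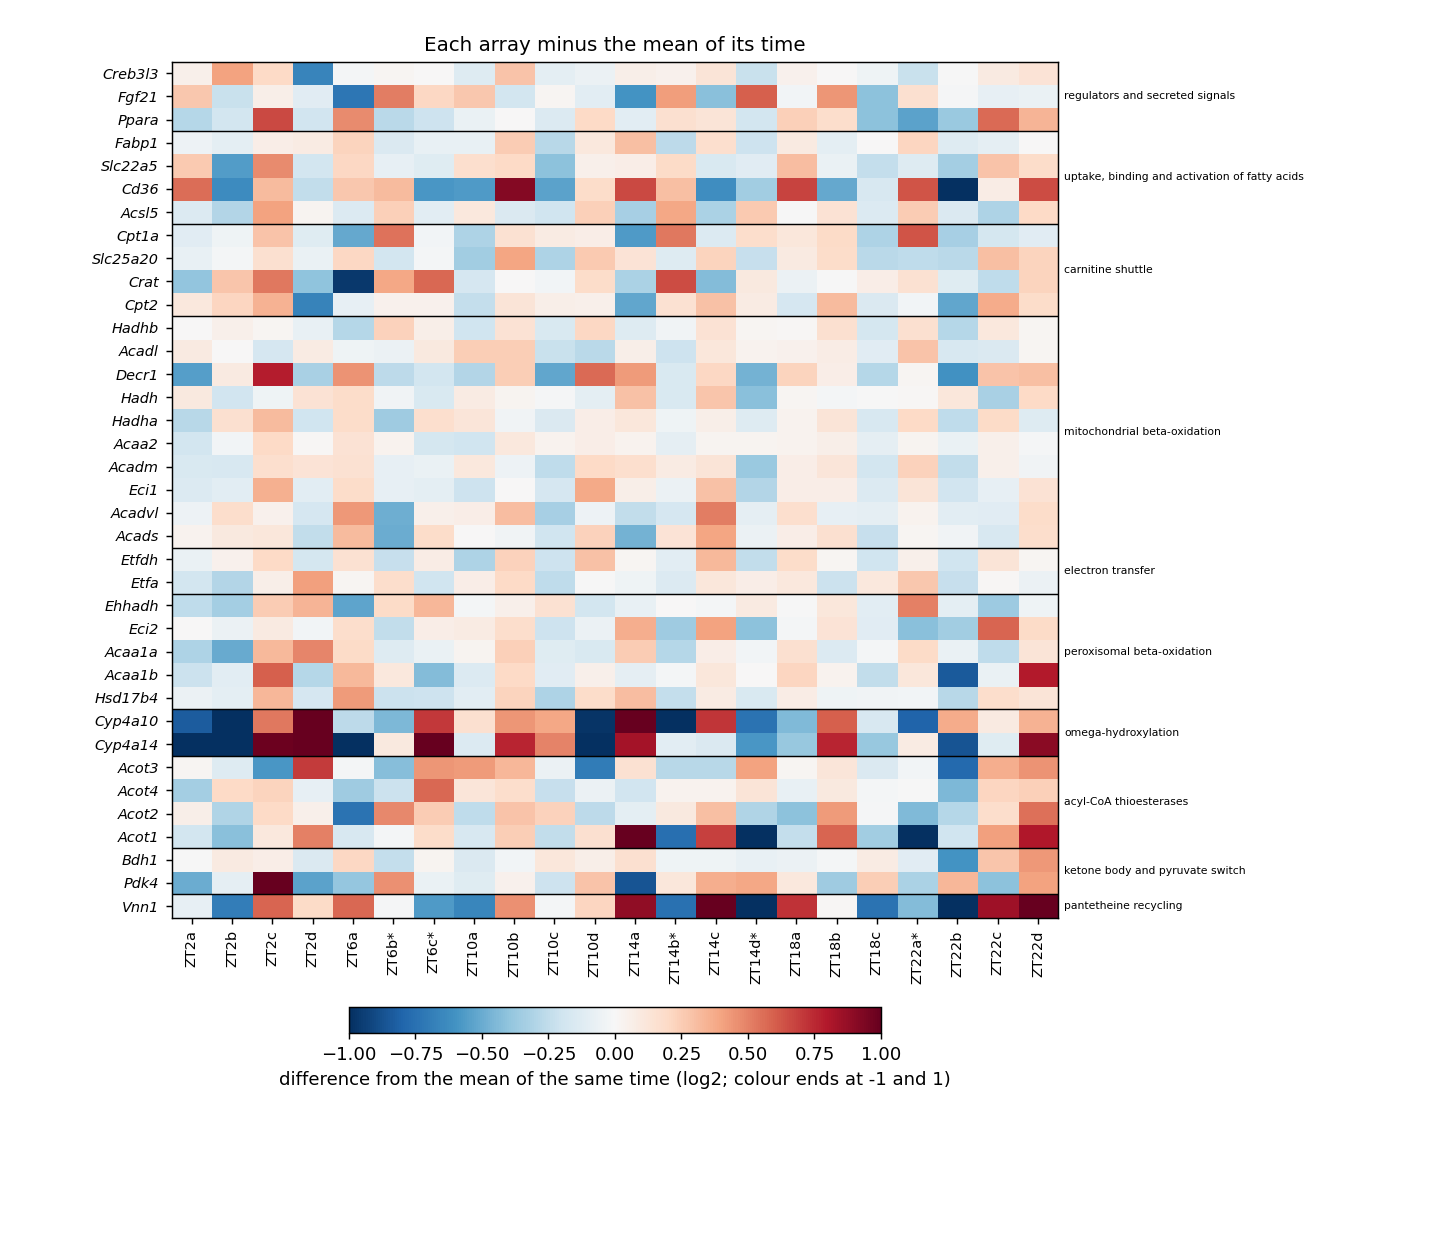
Each measured member (rows, grouped by role) in each array (columns; * marks the 5 arrays with high Tff3) minus the mean of its time, on the log2 scale with colours ending at -1 and 1. Cyp4a10, Cyp4a14, Vnn1 and Acot1 pass the colour limits in several arrays, Cd36 in ZT22b and Pdk4 in ZT2c. ZT2c is mostly red and ZT22b mostly blue.

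Other genes of fat oxidation were taken from a list of 70 (uptake, peroxisomes, ketone transport, PPARA partners and targets), of which 62 were measured. This list too was chosen with earlier results known, and an excess over background was not tested. The 24 h test called 15 of them, or 24.2%, against 7.62% of all features and 13.6% of those above the median level. In light against dark, 6 were called higher in the light and 3 in the dark, against 2.02% and 3.25% of all features. Between ZT10 and ZT22, 5 were called higher at ZT10 and 4 at ZT22, against 1.15% and 2.15%. Among features above the median level these shares were 3.20% and 6.05%, and 1.96% and 4.08%. The 8 of lowest adjusted p are given by their fitted peak. Rxra, the partner of PPARA, peaked at ZT9.80 (1.72-fold, adjusted p = 0.000577) and Pnpla2, the triglyceride lipase ATGL, at ZT10.1 (2.45-fold, adjusted p = 0.000385). Pex11a, a peroxisome division factor, peaked at ZT15.7 (3.18-fold, adjusted p = 0.00215). Lipa, the lysosomal lipase, peaked at ZT20.9 (1.97-fold), Slc16a1, a transporter of ketone bodies and lactate, at ZT22.3 (2.13-fold), and Hacl1, of peroxisomal alpha-oxidation, at ZT23.5 (4.94-fold). Plin2, a lipid droplet coat protein, peaked at ZT1.71 (2.88-fold) and Crot, which makes carnitine esters in peroxisomes, at ZT2.60 (4.49-fold, adjusted p = 5.76e-09).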

How the data were processed

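Per the labels' protocols, TRIzol was used to extract total RNA, of which 100 ng went into the WT Plus kit and onto a Clariom S array. The authors deposited log2 expression values per feature and array; the base is read from their range (1.68 to 19.87), and array medians lay between 5.28 and 5.36. How background was corrected and arrays normalized, and with which software and build, is not given in the sources used here. There are no detection calls. The number of arrays limits the precision.

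Groups follow the time label. The series text speaks of 3 to 4 mice a time, and an array counted as 1 mouse, so p-values measure the spread between mice. limma 3.58.1 in R 4.3.3 (with the package data.table, version 1.17.8) was fitted to all 22206 features. Of these, 19572 have 1 gene symbol in the probe annotation and the other 2634 were counted as without a symbol. P-values were adjusted by Benjamini-Hochberg over all 22206 features. The rhythm test took a cosine and a sine of 24 h together, and the span is 2 raised to the doubled amplitude. Contrasts came from a model of 6 time means. The fits were tested on simulated data. There the 24 h test recovered 4% of rhythms of amplitude 0.25, 80% of amplitude 0.5 and 100% of amplitude 1. Rhythms were planted in 50 features at each amplitude, drawn from all features, while 1691 features were called in the real data. These shares are thus not those of the members. Members, lists and tests were chosen with earlier results of these data known. Given in full are Ppara, Cpt1a, all members called rhythmic and, for a role without these, the member of highest mean; of the other genes, the 8 of lowest adjusted p. Planned protein comparisons were not made. Alternatives are named in the closing section.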

Additional observations from a re-analysis of the deposited data

Results flagged for a closer look

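In groups of 4 arrays, 6 of 148 sets of values (37 members at 4 times) held an array whose gap to the next exceeded Dixon's critical value, and chance alone gives about 1 in 20. Ppara stood apart in ZT2c at 12.25, with the others between 11.31 and 11.41. Eci1 also stood apart in ZT2c, at 10.44 against 9.95 to 9.98. Creb3l3 was high in ZT10b at 13.98 against 13.57 to 13.64, and Bdh1 in ZT14a at 13.09 against 12.86 to 12.89. Acadm was low in ZT14d at 11.57 against 12.03 to 12.11, and Acaa2 in ZT14b at 17.24 against 17.36 to 17.37; these 2 arrays had high Tff3. Times with 3 arrays were not tested in this way.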

How the results depend on the processing

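Alternatives tried were eBayes with trend and robust prior, arrays centred on their medians, quantile normalization, a filter to features brighter than the median, arrayWeights, a replicate block, normal scores of ranks, omission of the 5 arrays with high Tff3 or of each array, a threshold of 0.01, 24 h terms beside 12 h terms, and light and dark, or ZT10 and ZT22, as 2 plain groups. No member has a feature of lower mean to try. The count of members called between light and dark moved from 3 to 5 with quantile normalization and to 5 without the arrays with high Tff3, and lay between 3 and 5 when single arrays were left out. The causes were not tested. The other counts stayed within 1.5 times: the 24 h count was 10 with the replicate block too, and 10 to 12 in omissions of single arrays. Over all features, deviations of arrays of different times correlated alike with the same letter (r from -0.24 to 0.23) and with different letters (-0.242 to 0.255). What the letters stand for is not labelled, and a factor shared by part of the arrays or genes was not tested. Of the members called between light and dark or between ZT10 and ZT22, 0 changed sign with quantile normalization or without the arrays with high Tff3. Differences near 0 that were not called did, among them Etfdh between ZT10 and ZT22 (-0.12, and 0.04 with quantile normalization) and Cyp4a10 between light and dark (0.21, and -0.26 without the arrays with high Tff3). The 24 h calls of Acot1 and Etfdh were lost at a threshold of 0.01, where Eci2 and Bdh1 were lost between ZT10 and ZT22. That of Acot1 was also lost with ranks (adjusted p = 0.0620), and Bdh1 between ZT10 and ZT22 with these times alone (adjusted p = 0.0688). Cpt2, Acadl, Acaa1b and Eci2 gained the 24 h call under several settings, all 4 with features above the median level and with trend and robust prior. Signal near background limits Fgf21.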
